A study of Rattus norvegicus with 34 samples.

Results

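Positions 69 and 353 of TaqMan card A were followed over all 17 rat samples measured on that card. They are 2 of 384 numbered positions, each of which is a well with the assay of 1 miRNA or control RNA. They were chosen from the values themselves: position 69 was the earliest well in heart and in skeletal muscle, and position 353 came earlier in skeletal muscle than in any other sample. The levels in the 2 muscles are therefore given as a description without a test. No miRNA name stands beside a position number in the files, so neither position was assigned to a miRNA, no sequence is given, and the identity of the muscle samples could not be checked against marker miRNAs.

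The samples came from SD rats, male and female, at 4 weeks of age, with 1 sample of each kind and no treatment. The 12 whole organs were heart and skeletal muscle, the glands (pancreas, prostate, salivary, and lacrimal), the hollow or airway organs (lung, bile duct, and small intestine), and kidney, liver, and spleen, and their RNA was isolated by TRIzol and not preamplified. The 5 other samples, glomerulus and proximal tubule of the kidney, intestinal villus, bronchial gland, and mammary gland, were cut from sections by laser microdissection, and their RNA was isolated with the mirVana PARIS Kit and preamplified for 12 cycles. Because each organ has 1 sample, the spread between animals is unknown. How many animals gave each sample is not given in the sources used here.

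Striated muscle, the muscle of the heart and the skeleton, is known for a small set of miRNAs that are abundant there and scarce elsewhere, among them miR-1 and the miR-133 family. Some of these are shared by heart and skeletal muscle, while others belong mainly to one of them, and they act on the growth and differentiation of muscle cells. Smooth muscle, which forms the wall of the intestine, the airways, and many ducts, is known for miR-143 and miR-145. These names are background and were not tied to any position.

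The measured value is Cp, the number of PCR cycles a well needed to reach a set fluorescence, so that an earlier Cp means more template. A position was called detected at a Cp of at most 35, the limit used in the study, and wells without amplification are listed at 50. To compare samples, the median of each sample over the 78 positions detected in all 17 was subtracted, with the repeated positions 11, 12, 35, and 36 left out. The result is called scaled Cp, in cycles, with 0 at that median. A well that was not detected was set to a Cp of 35, so its scaled Cp is only the earliest value it could have had. The medians ran from 21.0 in bronchial gland to 31.2 in pancreas, and the numbers of detected positions from 125 in pancreas to 249 in lung, the repeated ones left out. The 4 repeated positions gave the spread between wells of 1 sample, with an SD from 0.0610 cycles in heart to 0.841 in lacrimal gland. This SD holds for an abundant RNA and covers neither a second animal nor a second card.

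Position 69 was detected in all 17 samples and was most abundant in the 2 striated muscles. Its Cp was 16.5 in skeletal muscle and 17.4 in heart, and its scaled Cp was -11.3 and -9.05. The next sample was small intestine, at a Cp of 25.7 and a scaled Cp of -0.809, so that the muscles lay 8.24 cycles or more before every other sample. If each cycle doubled the template, 8.24 cycles would be 302-fold. Without scaling the gap was 4.42 cycles, to the preamplified bronchial gland, whose Cp was 21.8.
The other organs then followed over a range of about 8 cycles. The scaled Cp of position 69 was -0.660 in prostate, -0.155 in lung, and -0.136 in bile duct. These 3 organs and small intestine formed the next step after the muscles, and none of the gaps between neighbours among them exceeded the SD of the repeated wells. Salivary gland followed at 2.01, lacrimal gland at 2.79, and pancreas at 3.21. Kidney was at 4.13, spleen at 4.15, and liver at 6.95. In liver the Cp was 34.997, just inside the detection limit, and position 69 was the last of 174 detected positions.
Among the microdissected samples the scaled Cp was 0.785 in bronchial gland, 1.69 in intestinal villus, and 3.08 in mammary gland. Proximal tubule and glomerulus were at 4.00 and 4.01, next to whole kidney at 4.13. Of the 16 gaps between neighbours in the order of all samples, 5 exceeded the SD of the repeated wells of the samples compared. They lay between skeletal muscle and heart, heart and small intestine, bile duct and bronchial gland, bronchial gland and intestinal villus, and spleen and liver. The order below the muscles depended on the scale. Only 7 of the 17 samples kept their place on the scale of the repeated positions, 8 without scaling, and 9 with a detection limit of 32. On the scale of the repeated positions bronchial gland came next after the muscles, with position 69 at 5.37 cycles after the mean of those positions against 8.08 in small intestine.

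**Figure D1:**
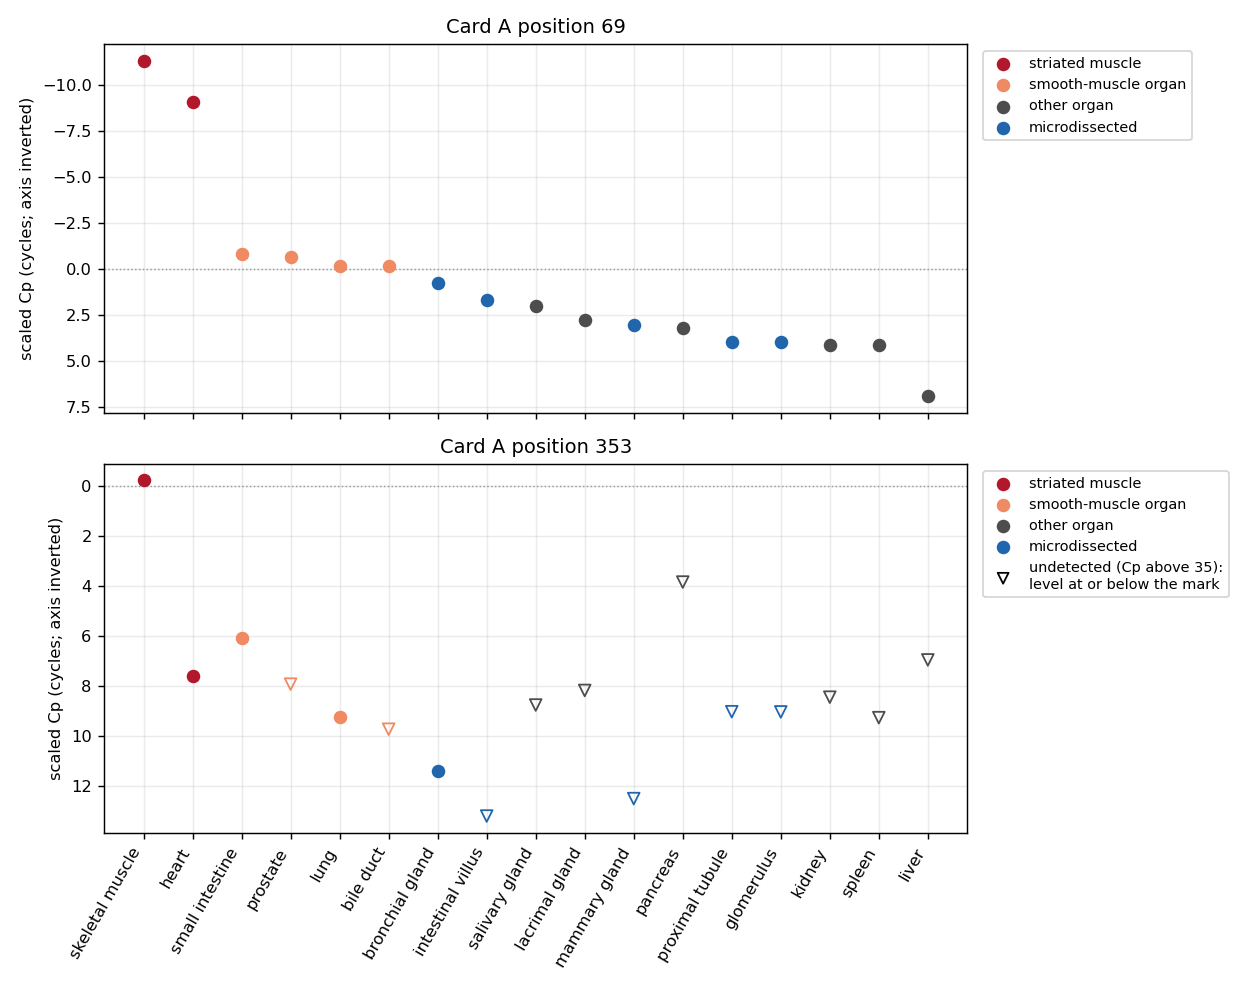
Scaled Cp in cycles (vertical axis, inverted so that more template is higher) of position 69 (upper panel) and position 353 (lower panel) in each of the 17 samples, ordered by position 69; each point is 1 sample, colours mark the kind of sample, and open triangles are undetected wells, whose level lies at or below the mark. Position 69 falls from -11.3 in skeletal muscle and -9.05 in heart to 6.95 in liver, and position 353 is detected in 5 samples.

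The place of position 69 among the wells of the same sample needs no scaling. It was the earliest of 380 positions in heart and in skeletal muscle, and it preceded even the repeated positions. In heart the next wells, positions 36 and 12, came 0.954 and 1.06 cycles later, and in skeletal muscle positions 35 and 12 came 2.12 and 2.36 cycles later. These are repeated positions. Apart from them, the next were positions 61 and 70 in heart, 2.38 and 2.47 cycles after position 69, and positions 70 and 7 in skeletal muscle, 2.84 and 3.03 cycles after it. In the other samples position 69 stood between place 32 in small intestine and place 174 in liver. It was at place 36 in lung, 39 in prostate, 40 in bile duct, 62 in bronchial gland, and 80 in both salivary gland and intestinal villus. Assays may amplify with unequal efficiency, so a place in this order is not an amount.

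Position 353 was detected in 5 of the 17 samples, and heart was not the second of them. Its Cp was 27.6 in skeletal muscle, 32.4 in bronchial gland, 32.6 in small intestine, 33.2 in lung, and 34.0 in heart. The scaled Cp was -0.210 in skeletal muscle, 6.08 in small intestine, 7.61 in heart, 9.21 in lung, and 11.4 in bronchial gland. Skeletal muscle thus stood apart from the other 4. On the scaled axis heart fell between organs without striated muscle as their main tissue, while in Cp it was the latest of the 5. The wells of these 4 samples, at a Cp of 32.4 to 34.0, all lay near the limit, so their scaled order depends much on the sample medians. The data therefore describe position 353 as led by skeletal muscle and not as shared by the striated muscles.
In 5 of the other 12 samples position 353 amplified after the limit. Its Cp was 35.3 in liver, 35.6 in bile duct, 40.4 in mammary gland, 41.7 in salivary gland, and 44.3 in lacrimal gland. In the remaining 7 samples, kidney, pancreas, prostate, spleen, intestinal villus, proximal tubule, and glomerulus, it did not amplify. A well that was not detected here does not show that the RNA was absent.
The lead of skeletal muscle at position 353 depended on how these wells were counted. Over the samples in which it was detected, the lead was 6.29 cycles, to small intestine. With all samples the lead was only 4.06 cycles, and the nearest sample was pancreas, where the undetected well was set to 35 and the median was the latest of all. In pancreas the scaled Cp of an undetected well was 3.85, so a level of position 353 like that of small intestine would not have been detected there. With pancreas left out the lead was 6.29 cycles. With a detection limit of 32 it was 1.09 cycles, and skeletal muscle was then the only sample with the position detected.

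Between the muscles, position 353 differed far more than position 69. At position 353 the scaled Cp was 7.82 cycles later in heart than in skeletal muscle (34.0 against 27.6 in Cp), which would be 226-fold if each cycle doubled the template. This was the largest difference in that direction among the 187 positions detected in both muscles. The rank follows in part from the choice of position 353 for its lead in skeletal muscle. Positions undetected in heart were not counted. Among them, position 228 had a wider gap, from -0.677 in skeletal muscle to 8.56 or later in heart. At position 69 the scaled Cp was 2.27 cycles later in heart, or 4.81-fold under the same assumption, and 17.1% of the 187 positions differed by at least as much in that direction. Over all 187 the median difference was -0.192 cycles and the SD over positions 2.18.
Skeletal muscle was at least 3 cycles earlier than heart at 23 of the 187 positions (12.3%), position 353 among them and position 69 not, and heart was that much earlier at 8 positions (4.28%), neither member among them. The difference at position 69 was larger than the SD of the repeated wells of both samples combined (0.178 cycles), but it moved with the scale. It was 1.31 cycles on the scale of the repeated positions and 0.915 cycles without scaling. With 1 sample of each muscle, no difference between them could be tested against the spread between animals.
The gap from position 69 to position 353 within a sample is free of the scale. It was 11.1 cycles in skeletal muscle and 16.7 in heart, a difference of 5.55 cycles. In small intestine it was 6.89 cycles, in lung 9.37, and in bronchial gland 10.6. Position 353 was thus closer to position 69 in these 3 samples than in either muscle, since position 69 was far later in them. In skeletal muscle both positions were earlier than in small intestine, position 69 by 10.5 cycles and position 353 by 6.29.

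**Figure D2:**
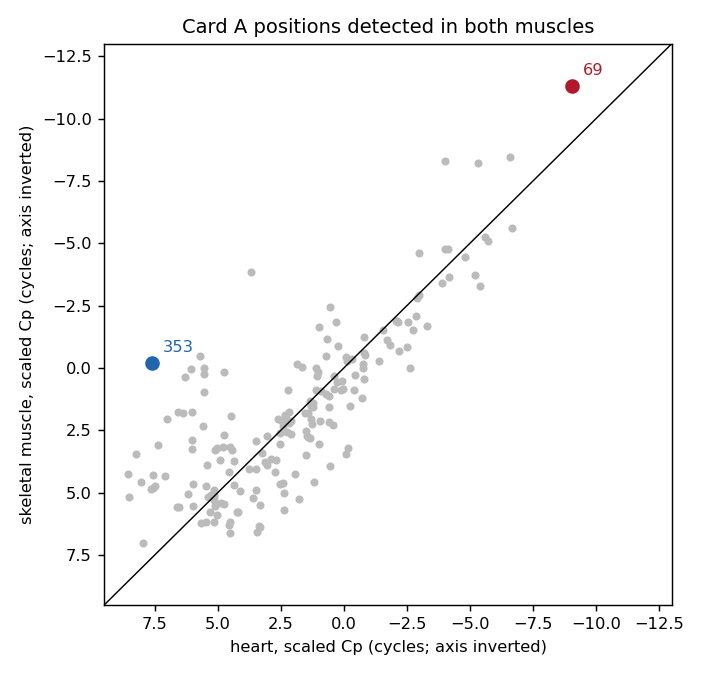
Scaled Cp in heart (horizontal axis) and skeletal muscle (vertical axis), in cycles with both axes inverted, for the 187 card A positions detected in both; each point is 1 position, the line marks equal values, and positions 69 and 353 are coloured. Position 69 lies at the early end in both muscles, and position 353 lies 7.82 cycles off the line.

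How much of these positions was found in organs with smooth muscle was examined next. Small intestine, lung, prostate, and bile duct were taken as organs whose wall, airways, ducts, or stroma hold much smooth muscle. Kidney, pancreas, salivary gland, lacrimal gland, liver, and spleen were the other organs, and the striated muscles and the microdissected samples were left out. The division follows anatomy but was made with earlier results of these data known, so that the test is not independent evidence. The organs are the units of the comparison.
Position 69 came earlier in each smooth-muscle organ than in each other organ. The scaled Cp was -0.440 ± 0.346 (SD, n = 4 organs) in the smooth-muscle organs and 3.87 ± 1.72 (SD, n = 6 organs) in the others. The difference was 4.31 cycles, the latest smooth-muscle organ (bile duct) and the earliest other organ (salivary gland) were 2.15 cycles apart, and the two-sided exact permutation test gave p = 0.00952, the smallest value that 4 against 6 organs allow. When this test was run at all 309 positions detected in any of the 10 organs and adjusted by the Benjamini-Hochberg method, the exact permutation p of position 69 became 0.633, and no position passed. The smallest p that 4 against 6 organs allow is too large for a few positions to pass this adjustment, and only 3 of the 309 reached it. The adjusted p therefore cannot decide whether position 69 differed between the classes. Without adjustment 14 of the 309 (4.53%) had a p under 0.05. Each smooth-muscle organ preceded each other organ at 2 of the 166 positions detected in all 4 smooth-muscle organs (1.2%), namely positions 69 and 8. The opposite order, with each smooth-muscle organ after each other organ, was seen at 0 of the 166 (0%). Choosing the 166 by detection in the smooth-muscle organs removes positions late in them, so the counts of the 2 orders cannot be compared.
With no overlap over all the organs, the classes had to stay apart within each apparent run length too. The labels give no run length, which was read from the latest Cp recorded in a sample, and samples with a Cp above 43 were called longer runs. Both classes held organs of either kind. Among the longer runs the mean scaled Cp was -0.398 in prostate and bile duct and 2.67 in pancreas, salivary gland, and lacrimal gland. Among the shorter runs it was -0.482 in lung and small intestine and 5.08 in kidney, liver, and spleen. The 2 classes did not overlap in either set. Permuting the organs within run lengths gave p = 0.02 (two-sided exact permutation test), the smallest value of 100 arrangements. Both outcomes were fixed by the separation over all the organs and add no support of their own. Within a single run length, 2 against 3 organs cannot give a p below 0.2.
The level in the smooth-muscle organs was still far below that of the striated muscles. Small intestine, the earliest of them, came 8.24 cycles after heart and 10.5 cycles after skeletal muscle. In a whole organ, fewer cells that hold an RNA and less of it per cell cannot be told apart.
Position 353 was detected in small intestine and lung, 2 of the 4 smooth-muscle organs, and in 0 of the 6 other organs (two-sided Fisher's exact test, p = 0.133). The planned test on scaled Cp gave a difference of 0.662 cycles, with the smooth-muscle organs later (two-sided exact permutation test, p = 0.657; adjusted over the 309 positions, permutation p = 0.911). That value rests on wells set to 35 in 8 of the 10 organs, and its direction turned without scaling, with undetected wells at 40, and without pancreas.

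For 3 organs a microdissected structure could be set beside the whole organ. Intestinal villus was cut from small intestine, whose main muscle layers lie outside the villi, and proximal tubule and glomerulus were cut from kidney. Bronchial gland was set beside lung, although the airway sectioned for it was the trachea. Position 69 had a scaled Cp of -0.809 in small intestine and 1.69 in intestinal villus, 2.50 cycles later. The median over the 196 positions detected in both was 0.289 cycles, and 15.3% were at least as late in the villus as position 69. The direction depended on the scale, as the difference was -0.396 cycles, earlier in the villus, on the scale of the repeated positions and -2.24 cycles without scaling. The place of position 69 among the wells was 32 in small intestine and 80 in intestinal villus.
Position 353 had a Cp of 32.6 in small intestine and did not amplify in intestinal villus. Its scaled Cp was thus at least 7.10 cycles later in the villus, and at least 4.21 cycles later on the scale of the repeated positions and 2.37 without scaling. A difference of 3 cycles or more in that direction was found at 25.5% of the 235 positions detected in small intestine. That share holds early and late positions, whether detected in the villus or not. Of the 235, 196 were also detected in the villus.
Bronchial gland was 0.939 cycles later than lung at position 69, and 43.8% of the 224 positions detected in both were at least as late. Here, too, the direction turned, to -1.97 cycles, on the scale of the repeated positions. At position 353 it was 2.16 cycles later, with 22.8% at least as late and a turn to -0.750 cycles on the scale of the repeated positions. Neither position reached 3 cycles, which 24.1% of the 249 positions detected in lung did.
At position 69, proximal tubule and glomerulus differed from kidney by -0.131 and -0.123 cycles, within the SD of the repeated wells. Here, too, the scale mattered, as the differences were -1.30 and -2.29 cycles on the scale of the repeated positions and both -0.711 without scaling. For proximal tubule the difference was -1.16 cycles with a detection limit of 32. Proximal tubule was at least 3 cycles later than kidney at 14.6% of the 239 positions detected in kidney, and glomerulus at 22.2%. Positions earlier in the compartment were not counted in these shares. The wells of position 69 gave nearly the same Cp in both compartments, 29.97 in proximal tubule and 29.98 in glomerulus. Other wells of these 2 samples also lay near whole cycles. The Cp was 32.96 and 32.99 at position 8, 27.00 in both at position 167, and 24.96 in both at position 373. Cp may thus be coarser in these samples than its digits, so small differences at position 69 cannot be read closely. The cause was not tested. Position 353 did not amplify in any of the 3 kidney samples. Isolation of the RNA and preamplification differed between every whole organ and the microdissected sample beside it, and their effect cannot be told apart from that of the dissection.

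**Figure D3:**
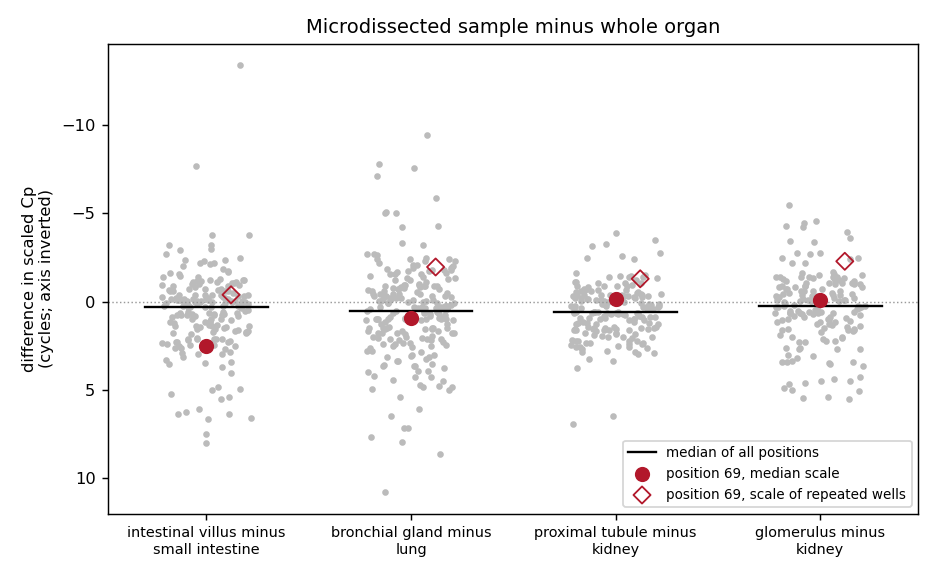
Scaled Cp of the microdissected sample minus that of the whole organ (vertical axis, cycles, inverted so that a higher level in the microdissected sample is up) for 4 pairs of samples; grey points are the positions detected in both, spread sideways at random, black lines their medians, red circles position 69, and open diamonds position 69 on the scale of the repeated positions. Position 69 is 2.50 cycles later in intestinal villus than in small intestine on the median scale and -0.396 cycles on the other.

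The positions whose pattern was most like that of position 69 were sought among 272 others detected in at least 3 samples, by the Pearson correlation of scaled Cp over the 17 samples. They were positions 8 (0.953), 70 (0.877), 7 (0.769), 167 (0.697), and 373 (0.575). These correlations rest largely on the 2 muscles. Over the other 15 samples they were 0.775, 0.555, 0.301, -0.120, and 0.104, in the same order. The samples share the scale and differ in depth, and the correlations are a description.
Position 8 was led by both muscles, as position 69 was. Its Cp was 19.6 in skeletal muscle and 21.1 in heart, and its scaled Cp of -8.24 and -5.33 lay 7.23 cycles or more before every other sample. Small intestine was again the next, at 1.89, followed by lung at 2.00, bronchial gland at 2.28, bile duct at 2.60, and prostate at 3.58. Among the other organs it was undetected in pancreas and lacrimal gland and lay between 6.29 and 7.45 in spleen, liver, salivary gland, and kidney. As at position 69, the 4 smooth-muscle organs all came first, although only 0.268 cycles before the undetected well of pancreas.
Position 70 also had a lead over every sample but the muscles, of 7.03 cycles. Its scaled Cp was -8.47 in skeletal muscle, -6.58 in heart, 0.456 in small intestine, and 1.10 in lung. Bile duct, at 4.44, came after lacrimal gland, at 2.74, so that the classes of organs overlapped at position 70. It was detected in 14 samples, pancreas, proximal tubule, and glomerulus being the exceptions.
Positions 69, 8, and 70 were the only ones of the 187 detected in both muscles (1.6%) at which both came at least 3 cycles before each of the other 15 samples. The next, position 167, had a lead of 1.03 cycles. The count of 3 is a lower limit. No position could lie later than 3.85 in pancreas, so positions late in a muscle could not lead by 3 cycles. At these 3 positions heart was later than skeletal muscle, by 2.27 cycles at position 69, 2.90 at position 8, and 1.89 at position 70. Within the samples, position 8 came 3.08 cycles after position 69 in skeletal muscle and 3.72 in heart, and position 70 came 2.84 and 2.47 cycles after it. The gaps of positions 8 and 70 from position 69 therefore each differed by under 1 cycle between the muscles, while position 353 moved by 5.55 cycles against position 69.
Position 7 was high in the muscles and in pancreas. Its scaled Cp was -8.29 in skeletal muscle, -5.04 in pancreas, and -4.03 in heart, so pancreas stood before heart. The next sample was lung, at 1.99. Positions 167 and 373 were detected in all 17 samples and varied little, from -0.268 to 2.28 at position 167 and from -2.96 to 0.313 at position 373.

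**Figure D4:**
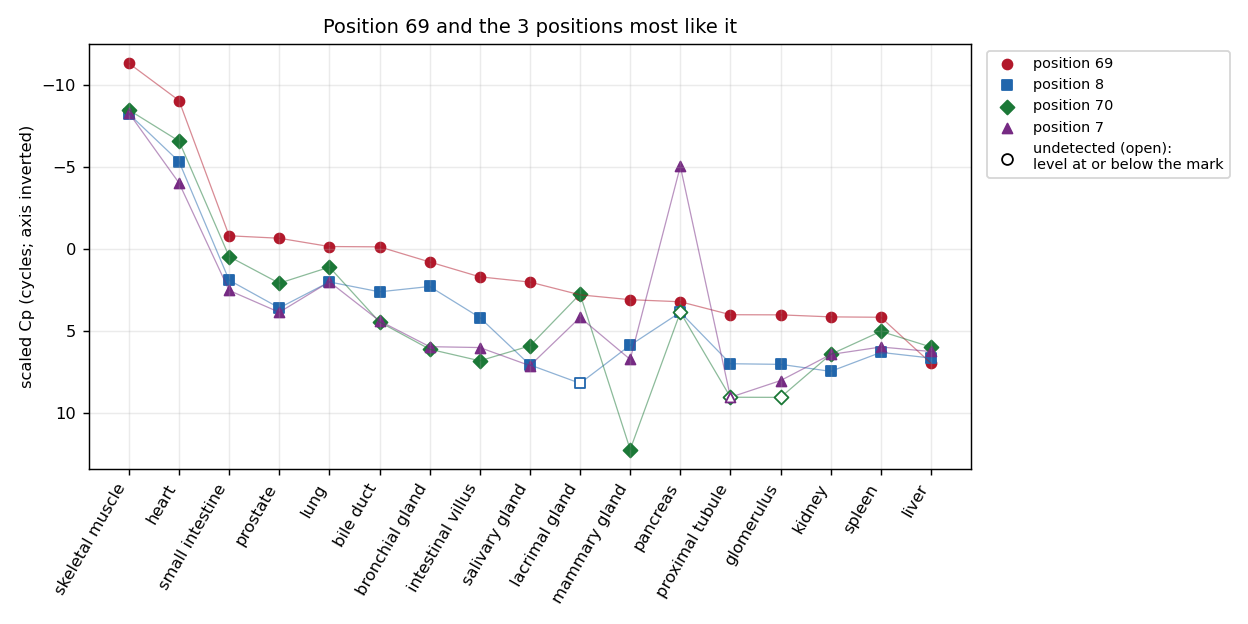
Scaled Cp in cycles (vertical axis, inverted) of position 69 and of the 3 positions most like it (8, 70, and 7) in the 17 samples, ordered by position 69; each point is 1 sample and open symbols are undetected wells, whose level lies at or below the mark. All 4 are highest in skeletal muscle, and position 7 is also high in pancreas, at -5.04.

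For position 353 the same search found positions 262 (0.946), 173 (0.905), 74 (0.875), 231 (0.874), and 160 (0.842). Many of the wells compared were ones in which neither position was detected. Such wells numbered 10 of 17 for position 262, 8 for 173, 9 for 74, 11 for 231, and 6 for 160, and in them the scaled Cp only mirrors the median of the sample. Without skeletal muscle and heart the correlations were between 0.794 and 0.943.
Skeletal muscle was the earliest sample at least 3 cycles before each of the other 16 at 4 of the 212 positions detected in it (1.89%). They were positions 272, 353, 228, and 7, with leads of 4.16, 4.06, 3.65, and 3.25 cycles, and the next was position 8, with 2.90. Heart led in this way at 0 of the 218 positions detected in it (0%), the largest lead of heart being 2.84 cycles at position 260. No position could lie later than 3.85 in pancreas, where an undetected well was set to that value. Positions late in a muscle therefore could not lead by 3 cycles, and both counts are lower limits. Of the 4 positions, 353 was the latest in skeletal muscle on the scaled axis, at -0.210, against -0.677 at position 228, -3.84 at 272, and -8.29 at 7.
Position 272 was nearest to the pattern of position 353 in heart, where it was 7.54 cycles later than in skeletal muscle, but it was detected in 13 samples and its next sample was salivary gland, at 0.317. Position 228 was not detected in heart, and its next sample was also salivary gland, at 2.97. Position 353 was not detected in salivary gland.

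**Figure D5:**
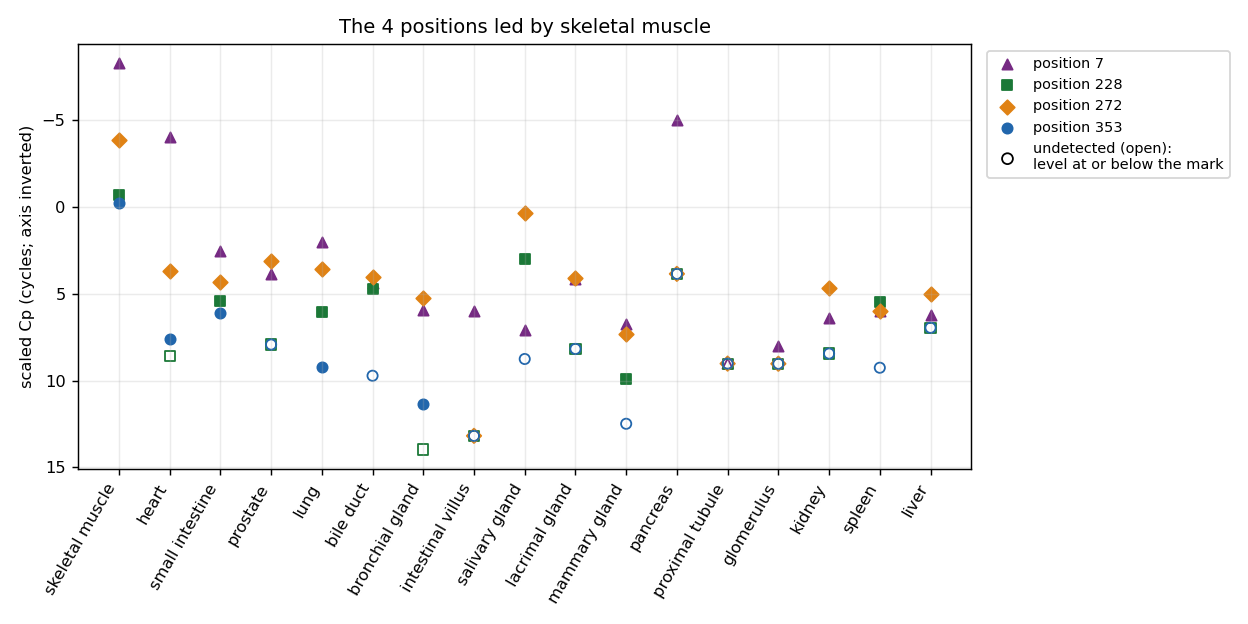
Scaled Cp in cycles (vertical axis, inverted) of the 4 positions at which skeletal muscle came at least 3 cycles before every other sample (7, 228, 272, and 353), in the 17 samples ordered by position 69; each point is 1 sample and open symbols are undetected wells, whose level lies at or below the mark. Position 353 is detected in the fewest samples, 5 of 17.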

How the data were processed

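Each sample was run by the authors on TaqMan card A in an ABI Prism instrument, and Cp values were read with the SDS software and RQ Manager. The deposited values are Cp per well, not normalized, and a value of 50 marks a well that did not amplify. The sample labels name a human card and the series' design text a rodent card, and which of them gives the order of assays was not settled here. The matching miRNA names were not used here, so normalization to U6 was not possible. Card B was not used, as both positions lie on card A. The median over 78 positions was subtracted to make samples of unequal Cp comparable. Whether it balances loaded RNA and preamplification was not tested, and it moves with the sample's own miRNAs.

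The members, organ classes, and searches were chosen with earlier results of these data known. Named positions were the 2 members, the 5 most like each of them, those led by both muscles or by skeletal muscle by at least 3 cycles, and the next wells after position 69. For organ classes, exact permutation tests were two-sided, with the smaller tail doubled. A Benjamini-Hochberg adjustment over the 2 members had been planned and was replaced by one over all 309 positions. The searches were tested on simulated data. Other scales, detection limits of 32 and 40, other classes, and leaving out organs were tried as alternatives. Depth is the number of detected positions, from 125 to 249. Tests ran in scipy 1.17.1 under Python 3.11.15, tables in pandas 2.3.3 and numpy 2.4.6, and plots in matplotlib 3.10.9.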

Additional observations from a re-analysis of the deposited data

How the results depend on the processing

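Each organ has 1 sample, so replicate error is not known, and values moved by less than the pooled SD of the repeated wells (0.401 cycles) were taken as unmoved. No paired analysis was possible because each group has 1 sample. On the scale of the repeated positions, the lead of heart and skeletal muscle at position 69 was 6.42 cycles, and heart minus skeletal muscle was 1.31 at position 69 and 6.86 at position 353. Without scaling these were 4.42, 0.915, and 6.46 cycles, and the lead of skeletal muscle at position 353 was 4.82. That lead was 1.09 with a limit of 32, 6.26 with a limit of 40, and 6.29 with undetected wells at 40 or without pancreas, the last chosen after the data were seen. With a limit of 32, position 353 was detected in 1 sample, and heart minus skeletal muscle fell to 5.71 cycles at position 353 and to 3.51 for its gap from position 69, by construction.

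The difference between smooth-muscle and other organs at position 69 kept its direction under all 13 other settings and with each organ left out (from -4.69 to -3.70 cycles, highest p = 0.0238 by exact permutation). Its unadjusted p was under 0.05 under 11 of the 13, the exceptions being the separate run lengths. Because the classes did not overlap, leaving out an organ could give only the smallest p possible. The 13 settings are not independent checks. Leaving out bile duct or kidney is counted in both sets. Undetected wells at 40 and permutation within run length could not change the difference, as position 69 was detected in every organ. The difference was -3.07 within the apparent longer and -5.56 within the shorter runs (exact permutation p = 0.2 in both, the smallest possible). At position 353 the difference was -1.05 without scaling, -2.36 with a limit of 40, -1.84 with undetected wells at 40, -8.25 places by rank, and -0.571 within the shorter runs, and with each organ left out it ran from -0.0824 (without pancreas) to 1.38. None of these had an unadjusted p under 0.05.

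Intestinal villus minus small intestine at position 69 was -0.396 on the scale of the repeated positions, -2.24 without scaling, and 2.97 with a limit of 40. Bronchial gland minus lung was -1.97, -2.01, and 1.73 in the same order, and 0.456 with a limit of 32. The cause was not tested. Of the 5 positions most like position 69, 3 were shared without scaling and 3 by Spearman correlation. Of those most like position 353, 2 were shared without scaling, 3 with a limit of 32, 1 with a limit of 40, 2 with undetected wells at 40, 1 by Spearman correlation, and 2 in the whole organs.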
